A study of Mus musculus with 6 samples.

Results

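Genes that can take part in the cutting of the NOTCH ligand JAG1 were followed in mouse astrocytes that overexpressed JAG1 and in their controls. They encode sheddases, iRhoms with a partner, and γ-secretase subunits. The genes were taken by symbol for their roles: Adam10 and Adam17 (sheddases), Rhbdf1 and Rhbdf2 (iRhoms), Frmd8 (the iRhom partner), and Psen2, Ncstn, Aph1a and Psenen (γ-secretase subunits). All 9 were found among the 23282 gene rows of the deposited tables and all 9 passed the filter on low counts, Frmd8 through its JAG1-overexpressing libraries alone. The set was chosen by role and by the read counts of this same comparison, in which Frmd8 had already been seen to rise. The changes of the 9 genes are therefore given as a description, with no p-value, and counts of calls among them stand only beside the share over all tested genes.

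A sheddase of the ADAM family cuts a membrane protein such as JAG1 outside the cell. γ-Secretase, a complex of presenilin, nicastrin, APH-1 and PEN-2, then cuts the remaining stub within the membrane and frees the intracellular domain. The iRhoms are rhomboid proteins without protease activity that carry ADAM17 out of the endoplasmic reticulum, and FRMD8 binds the iRhoms and stabilizes their complex with ADAM17 at the cell surface.

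The control group was Ink4a -/- murine astrocyte cells (Ink4a/Arf -/- in the study) with the empty vector pcDNA3.1-puro, and the JAG1-overexpressing group was the same line with pcDNA3.1-JAG1-puro, with 3 libraries each. Both groups thus lacked Ink4a, and the label WT of the control cells was taken to mean no JAG1 vector. Whether the libraries within a group were separate transfections, clones or pools is not stated, so the spread between them may be technical, and fewer cells with a transcript cannot be told apart from less RNA per cell. Libraries were made by the QuantSeq 3' method, which reads the 3' ends of polyadenylated transcripts, and held 14341634 to 20489062 counted reads. Levels are given as CPM (counts scaled to library size with TMM factors), which compares a gene between libraries and not genes with each other. A count of 3 reads was taken as the limit of detection, 0.148 to 0.206 CPM by library, and intervals cover counting error only.

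Gfap and Aqp4, which define mature astrocytes, had 0 reads in every library, and Slc1a2 and Slc1a3 had at most 2. Of the 11 astrocyte markers 7 could be tested and 6 were lower in JAG1-overexpressing cells, where 27.7% of all tested genes were. The sum of the list was 3267 to 3751 CPM in control and 3342 to 3408 CPM in JAG1-overexpressing libraries. Most of that sum was Vim, at 3106 ± 221 and 3213 ± 38.3 CPM (SD, n = 3), the 1 tested marker that was not lower. Sox9 fell from 181 ± 4.64 to 18.0 ± 1.25 CPM and Aldh1l1 from 2.98 ± 0.545 to 0.781 ± 0.0215 CPM (SD, n = 3; edgeR adjusted p = 5.31e-11 and 6.17e-05). The 8 markers of microglia and macrophages, cells rich in iRhom2, summed to 3.60 to 4.08 and 3.46 to 4.47 CPM, with Itgam, Aif1, P2ry12 and Trem2 at or under 3 reads in every library. Of the 2 tested, Cx3cr1 had 10, 17 and 14 reads in control and 23, 19 and 22 in JAG1-overexpressing libraries. It rose by 0.82 on the log2 scale (edgeR adjusted p = 0.0449), while Cd68 had −0.16 and was not past the threshold. The 5 neuron markers summed to 106 to 115 and 63.1 to 66.3 CPM, with Rbfox3 and Snap25 at or under 1 read. Of the 3 tested, Tubb3 and Syn1 fell and Map2 rose, with log2 fold changes of −3.21, −0.77 and 1.03 (edgeR adjusted p = 2.78e-10, 0.000317 and 2.78e-07). The 6 fibroblast and mural markers summed to 323 to 325 and 214 to 257 CPM, with Lum and Rgs5 at 0. Of the 4 tested, Col1a1, Pdgfrb and Dcn fell and Col1a2 rose, with log2 fold changes of −0.53, −1.66, −3.09 and 3.92 (edgeR adjusted p = 3.50e-05, 3.74e-08, 0.000127 and 1.42e-09). The 7 oligodendrocyte and 4 endothelial markers summed to at most 1.19 and 0.268 CPM. At an edgeR adjusted p under 0.05, 27.4% of all tested genes were higher and 27.7% lower, which stands beside each count of calls here. The part of these lists in the results was not tested.

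Jag1, the gene named by the vector, was at 8.99, 10.8 and 11.2 CPM in control and at 15.2, 13.6 and 13.8 CPM in JAG1-overexpressing libraries. The JAG1-overexpressing libraries all lay higher, by a log2 value of 0.46 (edgeR adjusted p = 0.00446, SE 0.11). The labels do not give the species of the JAG1 sequence in the vector, and the 3' method reads only the end of a transcript. Whether reads of the vector count toward Jag1 is therefore not known, and the change of Jag1 is not taken as a measure of the overexpression.

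Frmd8 went from almost no reads to a well-detected transcript, Adam10 and Aph1a were 1.27-fold and 1.24-fold higher, and the remaining 6 genes overlapped between the groups. At an adjusted p under 0.05 from edgeR over 11712 genes, 3 of the 9 genes were higher, where 27.4% of all tested genes were, and 0 were lower, where 27.7% were. The 0 was also 0 at an unadjusted p under 0.05, by DESeq2 and by limma. The same 3 genes were those whose groups did not overlap, which held for 62.0% of all tested genes, with the JAG1-overexpressing libraries on top for 31.1%. Since this comparison chose the genes, nothing is read from these counts.

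**Figure D1:**
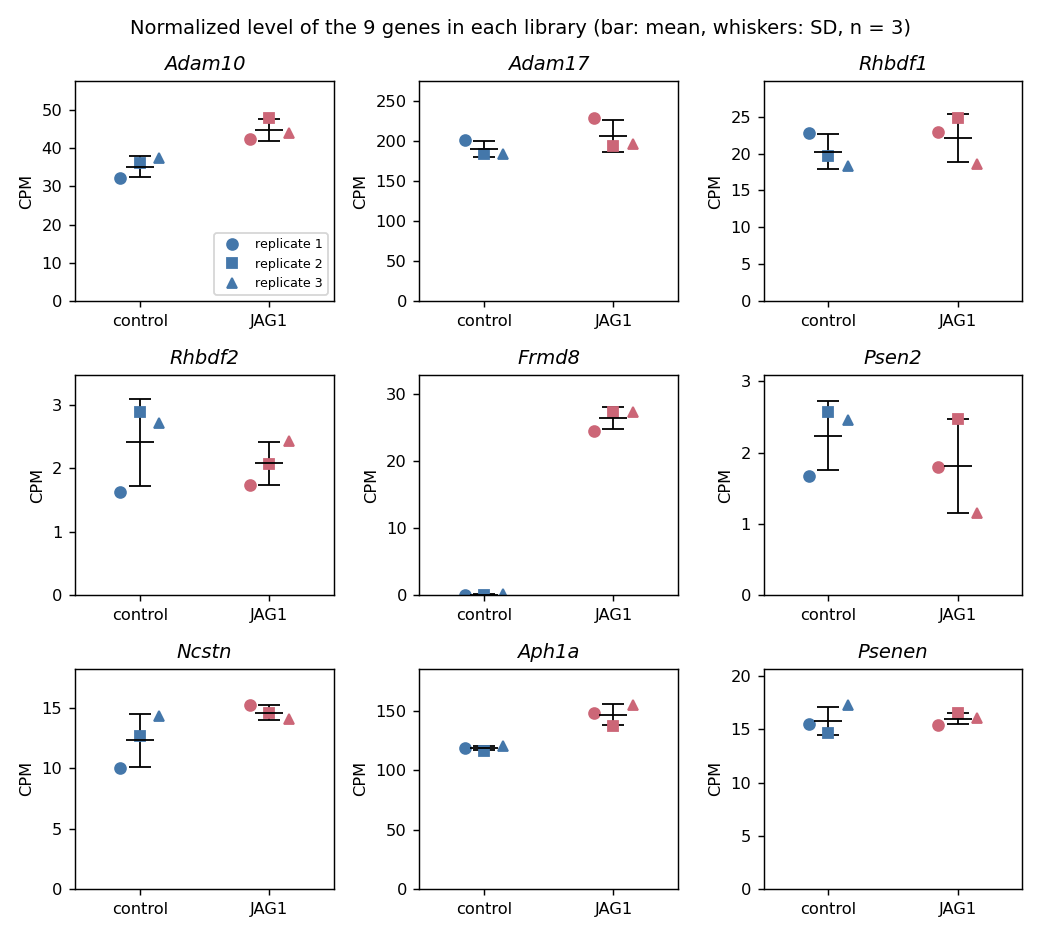
Each panel plots 1 gene, with the level in CPM on a linear y axis from 0 and the control (blue) and JAG1-overexpressing (JAG1, red) libraries on the x axis. Points are libraries, with a shape for each replicate number, the bar is the mean and the whiskers are the SD of 3 libraries. Frmd8 lay at 24.5, 27.4 and 27.3 CPM in the JAG1-overexpressing libraries and near 0 in control, Adam10 and Aph1a did not overlap between the groups, and the other 6 genes did.

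Frmd8 (chr19:5850974-5875269, GRCm38, minus strand) encodes the FERM-domain partner of the iRhoms. It had 1, 1 and 2 reads in the control libraries and 491, 398 and 449 in the JAG1-overexpressing libraries. All control libraries thus lay under the limit of detection, while the JAG1-overexpressing libraries were at 24.5, 27.4 and 27.3 CPM, or 26.4 ± 1.65 CPM (SD, n = 3). With 3 reads taken for every control library, the mean of the JAG1-overexpressing libraries was 169.8-fold higher. This ratio rests on the assumed 3 reads and carries no counting interval. Its JAG1-overexpressing libraries varied by 6.26% (coefficient of variation), where counting alone gives 4.75%. The fitted log2 fold change of 8.44 (SE 0.21) depends on how counts of 1 and 2 are treated and is no bound. In the same fit the change of Frmd8 was larger in size than that of 99.7% of all tested genes. In GENCODE M21 the antisense gene Frmd8os overlaps the last 500 bases of Frmd8, and no row was found under that symbol. Because the use of strand in counting is not stated, reads of Frmd8 and Frmd8os cannot be told apart.

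The promoters of Frmd8, Adam10 and Aph1a are shown because these were the 3 genes whose groups did not overlap. They are RefSeq sequences (GRCm38.p6) from 250 bases before to 50 after the start, at chr19:5875159-5875458 (minus strand), chr9:70678732-70679031 (plus strand) and chr3:95893671-95893970 (plus strand). For Frmd8 and Adam10 this start lies inside the gene coordinates printed here, so distances to the start are not distances to the gene end. Capitals mark matches on either strand to TGGGAA, the core of the site of the NOTCH effector RBPJ, to CAGAC, a SMAD element, and to CANNTG, the E-box.
Frmd8: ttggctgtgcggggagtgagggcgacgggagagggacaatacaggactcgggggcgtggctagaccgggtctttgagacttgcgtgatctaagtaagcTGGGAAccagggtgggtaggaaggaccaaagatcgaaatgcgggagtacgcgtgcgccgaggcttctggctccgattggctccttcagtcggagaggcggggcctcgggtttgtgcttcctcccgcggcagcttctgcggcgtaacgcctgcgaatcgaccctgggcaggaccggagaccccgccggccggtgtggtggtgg
Adam10: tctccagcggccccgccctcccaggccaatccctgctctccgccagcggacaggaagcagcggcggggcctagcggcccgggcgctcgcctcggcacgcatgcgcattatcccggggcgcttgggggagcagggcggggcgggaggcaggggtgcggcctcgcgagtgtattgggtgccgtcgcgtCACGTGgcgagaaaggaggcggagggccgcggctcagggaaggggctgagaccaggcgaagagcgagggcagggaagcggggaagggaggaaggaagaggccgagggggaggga
Aph1a: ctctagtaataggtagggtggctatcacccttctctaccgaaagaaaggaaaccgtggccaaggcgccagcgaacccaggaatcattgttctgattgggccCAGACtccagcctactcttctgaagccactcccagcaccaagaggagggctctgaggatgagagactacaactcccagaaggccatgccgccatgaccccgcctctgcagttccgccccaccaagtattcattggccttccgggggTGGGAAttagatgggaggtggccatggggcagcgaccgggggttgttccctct
The Frmd8 window held 1 match to TGGGAA, 152 bases before the start, and none to the other motifs. The Adam10 window held 1 E-box, CACGTG, 64 bases before the start. In the Aph1a window a TGGGAA lay 3 bases and a CAGAC 149 bases before the start. Among 32851 promoters of this length, 25.6% held TGGGAA, 49.6% CAGAC and 72.3% CANNTG, and a match of letters is a description, not a site. GC content was 64.7% with 28 CpG dinucleotides for Frmd8, 73.3% with 32 for Adam10 and 58.0% with 10 for Aph1a, beside medians of 52.7% and 7 over all promoters. Promoters were at hand for 7 of the 9 genes, Rhbdf1 and Rhbdf2 not among them. The same motifs also lay in promoters of genes whose groups overlapped. Over their windows Psen2 and Psenen each held all of these motifs, Ncstn held CAGAC and Adam17 an E-box. Since the outcome picked the promoters shown, no tie between motifs and changes is read from them.

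Adam10 (chr9:70678944-70780229) encodes a sheddase that cuts NOTCH receptors and several of their ligands. It was at 32.2, 36.0 and 37.3 CPM in control and at 42.5, 48.0 and 43.9 CPM in JAG1-overexpressing libraries. The lowest JAG1-overexpressing library lay above the highest control library. The log2 fold change was 0.35 (SE 0.08), or 1.27-fold, and 54.0% of all tested genes had a smaller change in size.

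Adam17 (chr12:21323509-21373632) encodes the sheddase of TNF and of several EGF receptor ligands, and it depends on the iRhoms. It was at 202, 184 and 184 CPM in control and at 229, 194 and 197 CPM in JAG1-overexpressing libraries. The groups overlapped, with control replicate 1 above 2 of the JAG1-overexpressing libraries, and the log2 fold change was 0.12 (SE 0.07). On the opposite strand, Iah1 overlaps the last 500 bases of Adam17, and it was at 12.6, 10.8 and 11.3 CPM in control and 15.6, 16.4 and 14.6 CPM in JAG1-overexpressing libraries.

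Of the reads of both sheddases, Adam17 took 84.3% ± 1.68 in control and 82.1% ± 2.12 in JAG1-overexpressing libraries (SD, n = 3). The share was lowest in JAG1-overexpressing replicate 2, at 80.2% (exact 95% binomial interval 78.8% to 81.5%), and highest in control replicate 1, at 86.2% (exact 95% binomial interval 85.2% to 87.2%). The ranges of the groups overlapped. A share of 3' reads is not a share of protein.

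Rhbdf1 (chr11:32209585-32222331) encodes iRhom1. It was at 22.8, 19.6 and 18.3 CPM in control and at 22.9, 24.8 and 18.5 CPM in JAG1-overexpressing libraries, with overlapping groups and a log2 fold change of 0.12 (SE 0.12). While Frmd8 appeared, the level of this binding partner lay within the spread of the libraries.

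Rhbdf2 (chr11:116598148-116626960) encodes iRhom2, the form known from macrophages. It had few reads, 33, 54 and 52 in control and 35, 30 and 40 in JAG1-overexpressing libraries. At 1.63, 2.90 and 2.72 CPM in control and 1.74, 2.06 and 2.43 CPM in JAG1-overexpressing libraries, the latter lay inside the range of the former. The log2 fold change of −0.22 had an SE of 0.26, so that modest changes were not detectable at this depth. Of the reads of both iRhoms, Rhbdf2 took 10.8% ± 3.61 in control and 8.78% ± 2.46 in JAG1-overexpressing libraries (SD, n = 3). Control replicate 1 had the lowest share, 6.67% (exact 95% binomial interval 4.63% to 9.24%), and control replicate 3 the highest, 13.0% (exact 95% binomial interval 9.84% to 16.7%), so the control libraries spanned all others.

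Psen2 (chr1:180227004-180263467) encodes presenilin-2, one form of the catalytic subunit of γ-secretase. It had 34, 48 and 47 reads in control and 36, 36 and 19 in JAG1-overexpressing libraries. In CPM this was 1.68, 2.58 and 2.46 against 1.79, 2.48 and 1.15, with overlapping groups. Its log2 fold change was −0.32 (SE 0.29), and −0.08 without JAG1-overexpressing replicate 3.

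Ncstn (chr1:172066013-172082789) encodes nicastrin, the subunit that receives the cut substrate. It was at 9.97, 12.7 and 14.3 CPM in control and at 15.2, 14.6 and 14.0 CPM in JAG1-overexpressing libraries. Control replicate 3 lay inside the range of the JAG1-overexpressing libraries, and the other control libraries lay below it. Its log2 fold change was 0.25 (SE 0.13), and 0.12 without control replicate 1.

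Aph1a (chr3:95893921-95898592) encodes the scaffold subunit APH-1A. It was at 119, 116 and 120.2 CPM in control and at 148, 137 and 155 CPM in JAG1-overexpressing libraries. The groups did not overlap, and the control libraries varied by 1.59%, where counting alone gives 2.09%. Its log2 fold change was 0.31 (SE 0.06), or 1.24-fold, and 49.8% of all tested genes had a smaller change in size. On the opposite strand, Car14 overlaps the last 500 bases of Aph1a, and it was at 2.17, 2.52 and 1.88 CPM in control and 2.84, 2.55 and 4.07 CPM in JAG1-overexpressing libraries.

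Psenen (chr7:30561865-30563627) encodes PEN-2, the smallest subunit. It was at 15.5, 14.7 and 17.3 CPM in control and at 15.5, 16.5 and 16.0 CPM in JAG1-overexpressing libraries, all of the latter inside the range of the former. Its log2 fold change was 0.02 (SE 0.09), and 2.90% of all tested genes had a smaller change in size.

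Position along the genome was not used in the choice. Frmd8 was the 1 gene of the 9 on chromosome 19. Of the 422 genes tested there 313 rose and 31 fell, where 27.4% of all tested genes rose and 27.7% fell. The median of the 422 genes was 0.61 on the log2 scale. The chromosomes of the other 8 genes had medians between −0.02 and 0.05. Chromosome 19 was not alone in its shift. On chromosome 15, which held none of the 9 genes, 345 of 458 tested genes fell and 32 rose, with a median of −0.53. The fitted value of Frmd8 lay 7.83 above the median of its chromosome on the log2 scale, that of Adam10 0.34 above and that of Aph1a 0.26 above.

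**Figure D2:**
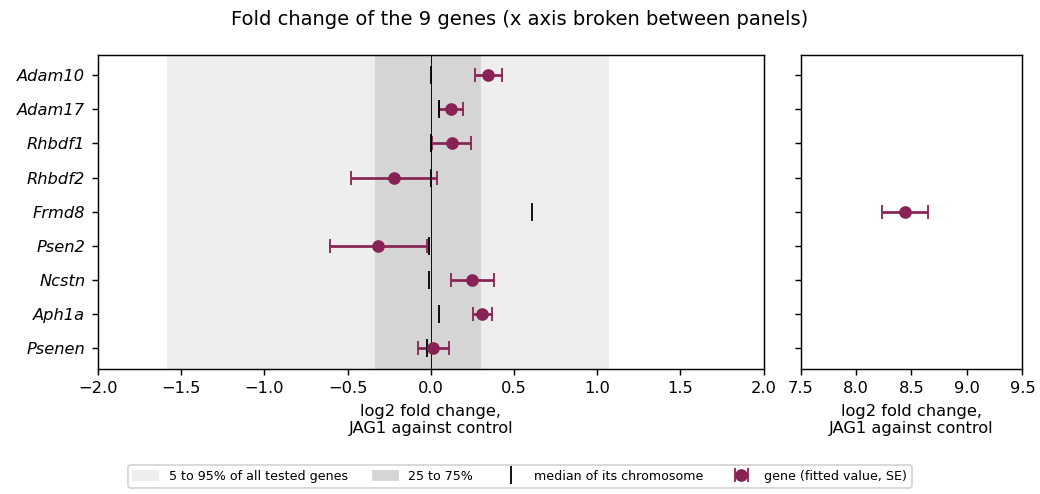
The x axis is the log2 fold change of JAG1-overexpressing (JAG1) against control libraries, broken between the panels, and each row is 1 gene. Points are fitted values with their standard error, black ticks are the median of the tested genes of the same chromosome, and the grey bands hold 25 to 75% and 5 to 95% of all tested genes. Frmd8 sits at 8.44, away from the chromosome 19 median of 0.61, and the other 8 genes sit between −0.32 and 0.35.

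Frmd8 lies between Neat1, 5.49 kb away, and Slc25a45, 2.53 kb away. Neat1, the long non-coding RNA that builds nuclear paraspeckles, lies past the 3' end of Frmd8 on the same strand. It was at 3.41, 4.29 and 3.19 CPM in control and at 364, 387 and 223 CPM in JAG1-overexpressing libraries, and rose by 6.48 on the log2 scale (edgeR adjusted p = 2.14e-09, SE 0.23). Malat1, the abundant nuclear RNA beyond Neat1, fell by 0.67 (edgeR adjusted p = 0.00644, SE 0.17). On the other side, Slc25a45, a mitochondrial carrier, fell by 0.59 (edgeR adjusted p = 0.0298, SE 0.21). This call was lost under DESeq2 (adjusted p = 0.0641) and without control replicate 1, control replicate 2, JAG1-overexpressing replicate 1 or JAG1-overexpressing replicate 3 (edgeR adjusted p from 0.0723 to 0.111). Cdc42ep2, an effector of CDC42, fell by 2.76 (edgeR adjusted p = 1.48e-08, SE 0.13).

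Of the 10 tested genes nearest to Frmd8, 5 on each side, 6 were higher and 3 lower. Over all tested genes 55.1% were called in either direction, and of the 422 tested on chromosome 19, 313 were higher and 31 lower. The median of the 10 genes was 0.61 on the log2 scale, as for chromosome 19. Sssca1 (Znrd2 in RefSeq), Ltbp3, Pola2 and Capn1 rose by 0.60 to 0.85. Dpf2 had 0.18 and was not past the threshold.

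**Figure D3:**
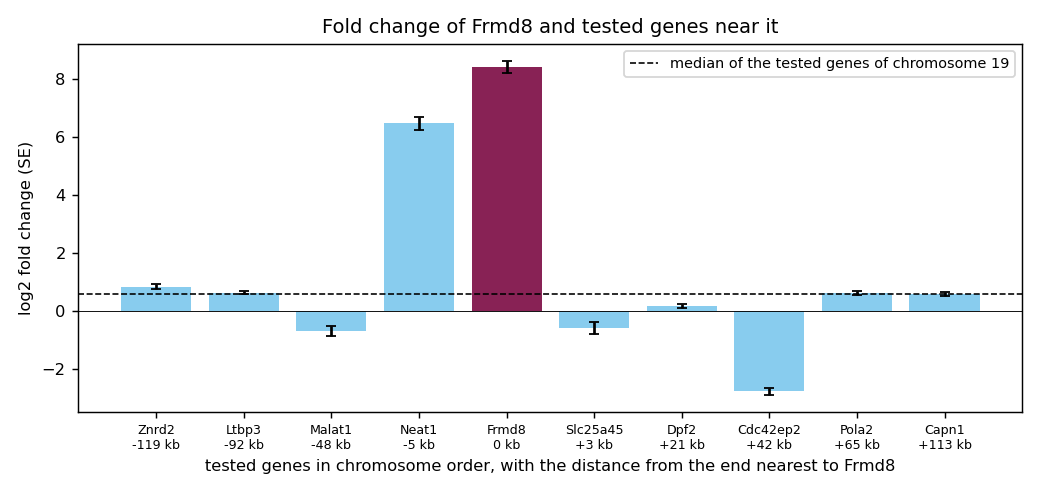
Bars are the log2 fold change (y axis, with standard error) of Frmd8 and of 9 of the 10 tested genes nearest to it, in chromosome order, and the x labels give the distance from Frmd8 in kb. The dashed line is the median of chromosome 19, at 0.61. Neat1 and Frmd8, next to each other, reach 6.48 and 8.44, while Malat1, Slc25a45 and Cdc42ep2 lie below 0.

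At most 3 reads in every control library together with at least 10 CPM in JAG1-overexpressing cells was found for 11 tested genes, of which 1 was on chromosome 19, Frmd8. By Euclidean distance of log2 CPM over the 6 libraries, the genes nearest to Frmd8 were Nid1 (1.20), Osr1 (1.24), Ica1 (1.48), Gpc4 (1.58) and Slc6a15 (1.61). Their mean levels in JAG1-overexpressing libraries were 30.6, 24.6, 35.6, 18.6 and 15.5 CPM. In the control libraries Nid1 had 4, 0 and 2 reads and Osr1 4, 3 and 2, and Ica1 had 0 in each. The distance follows the difference between the groups, which these genes share.

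The remaining γ-secretase genes moved in both directions. Of 6 listed, 4 could be tested, of which 1 was higher and 2 were lower, where 55.1% of all tested genes were called in either direction. Aph1c, a mouse paralog of the APH-1 scaffold that can share reads with the near-identical Aph1b, had 14, 13 and 13 reads in control and 4, 3 and 1 in JAG1-overexpressing libraries. It fell by 2.09 on the log2 scale (edgeR adjusted p = 0.00387, SE 0.49). Aph1a took 99.4% ± 0.0165 of the reads of Aph1a and Aph1c in control and 99.9% ± 0.0600 in JAG1-overexpressing libraries (SD, n = 3). Rer1, which retains unassembled subunits in the early secretory pathway, rose by 0.41 (edgeR adjusted p = 0.00242, SE 0.09), and Tmed10 had a log2 fold change of 0.01 and was not past the threshold.

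Of 9 other ADAM and β-site proteases 5 could be tested, with 2 higher and 1 lower, or 60.0% called beside 55.1% of all tested genes. Adam9, a widely expressed sheddase, was at 2.22, 11.2 and 20.6 CPM in control and at 27.6, 48.9 and 40.9 CPM in JAG1-overexpressing libraries. The groups did not overlap, but the control libraries lay far apart. Adam9 rose by 1.79 on the log2 scale (edgeR adjusted p = 0.00761, SE 0.47), with an adjusted p of 0.0588 from DESeq2. Its fold was 3.45 with all libraries, 2.43 without control replicate 1 and 5.88 without control replicate 3. Adam8, a sheddase known from leukocytes, rose from 1.30 ± 0.291 to 2.73 ± 0.610 CPM (SD, n = 3; edgeR adjusted p = 0.00442, SE 0.26). Bace1, the β-secretase, fell by 0.52 on the log2 scale (edgeR adjusted p = 8.09e-05, SE 0.07). Adam15 and Adam12 had log2 fold changes of 0.18 and −0.68 and were not past the threshold.

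Of 11 genes for the traffic and maturation of sheddases 7 could be tested, with 3 higher and 2 lower, or 71.4% called beside 55.1% of all tested genes. Tspan17, a tetraspanin of the group that escorts ADAM10, was at 39.4, 40.3 and 40.1 CPM in control and at 13.8, 12.9 and 14.0 CPM in JAG1-overexpressing libraries. It fell by 1.55 on the log2 scale (edgeR adjusted p = 2.32e-08, SE 0.08). In the same group Tspan14 fell by 0.42 (edgeR adjusted p = 8.07e-05, SE 0.06) and Tspan15 rose by 0.56 (edgeR adjusted p = 0.0140, SE 0.17), while Tspan5 had −0.08 and was not past the threshold. Pacs2, a sorting protein for ADAM17, rose by 0.87 (edgeR adjusted p = 2.73e-07, SE 0.06). Furin, which removes the prodomain of sheddases, rose by 0.21 with overlapping groups (edgeR adjusted p = 0.0378, SE 0.08), and Pcsk7 had 0.05 and was not past the threshold. Without JAG1-overexpressing replicate 1 the list had 3 called genes in place of 5.

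Of 6 sheddase inhibitors 3 could be tested, with 1 higher and 1 lower (55.1% of all tested genes were called). Timp1 rose by 0.59 on the log2 scale (edgeR adjusted p = 1.42e-05, SE 0.06) and Timp2 fell by 0.48 (edgeR adjusted p = 4.60e-06, SE 0.04). Timp3, the TIMP known to block ADAM17, was at 198 ± 10.3 CPM in control and 211 ± 3.85 CPM in JAG1-overexpressing libraries (SD, n = 3) and was not past the threshold.

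Of 7 other rhomboid genes, relatives of the iRhoms, 5 could be tested, with 2 higher and 3 lower, where 55.1% of all tested genes were called. Rhbdl1, a rhomboid protease, had 36, 25 and 29 reads in control and 23, 8 and 12 in JAG1-overexpressing libraries and fell by 0.89 on the log2 scale (edgeR adjusted p = 0.0322, SE 0.31). That call was lost under DESeq2 (adjusted p = 0.0793) and without control replicate 1, control replicate 3, JAG1-overexpressing replicate 2 or JAG1-overexpressing replicate 3 (edgeR adjusted p from 0.0508 to 0.107). The number called in this list was 3 with DESeq2, and also 3 when either control replicate 3 or JAG1-overexpressing replicate 3 was left out. The signal peptide peptidases Sppl2a, Sppl2b and Sppl3, relatives of presenilin, had log2 fold changes between −0.08 and 0.10. Of these 0 were called by edgeR, at an unadjusted p under 0.05, by DESeq2 or by limma, where edgeR called 55.1% of all tested genes. Sppl2a did not overlap between the groups, which held for 62.0% of all tested genes. Of 5 other FRMD genes Frmd4a and Frmd6 could be tested, and both, where 27.4% of all tested genes were higher, rose by 0.27 (edgeR adjusted p = 0.00894, SE 0.07) and 0.37 (edgeR adjusted p = 0.00274, SE 0.08).

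**Figure D4:**
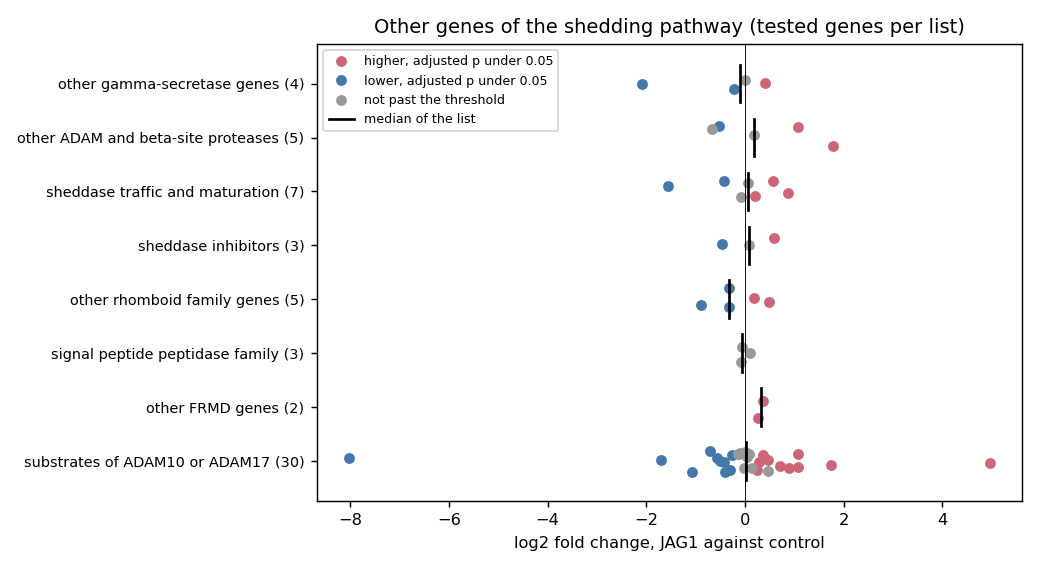
The x axis is the log2 fold change of JAG1-overexpressing (JAG1) against control libraries, and each point is a tested gene of the list named on the y axis, with the number of tested genes in brackets. Red points were higher and blue points lower at an adjusted p under 0.05, grey points were not past the threshold, and black bars are list medians. Areg at 4.97 and Ptk7 at −8.02 stand farthest from 0.

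Of 36 genes whose proteins are known to be shed by ADAM10 or ADAM17, Jag1 included, 30 could be tested for their RNA. Of these, 10 rose and 10 fell in JAG1-overexpressing cells, or 66.7% called, beside 27.4% higher, 27.7% lower and 55.1% called among all tested genes. The list had a median of 0.02 on the log2 scale, and 7 were called at 2-fold or more, where 13.9% of all tested genes were. Among the ligands of the EGF receptor family, Areg (amphiregulin) had 3, 1 and 5 reads in control and 94, 78 and 86 in JAG1-overexpressing libraries. It rose (edgeR adjusted p = 2.20e-07, SE 0.32), with a fitted log2 value of 4.97 that rests on control counts near the limit of detection and ran from 4.60 to 5.53 with 1 library left out. Hbegf rose from 53.4 ± 1.90 to 113 ± 2.04 CPM (SD, n = 3; edgeR adjusted p = 4.41e-08, SE 0.06), and Ereg (epiregulin) rose by 0.90 on the log2 scale (edgeR adjusted p = 5.75e-06, SE 0.09). Tgfa, Btc and Nrg1, of the same family, had log2 fold changes of 0.46, 0.04 and −0.10 and were not past the threshold.

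Among the NOTCH receptors, which ADAM10 and γ-secretase cut, Notch1 was at 3.95, 4.67 and 4.81 CPM in control and at 16.0, 15.1 and 13.6 CPM in JAG1-overexpressing libraries. It rose by 1.74 on the log2 scale (edgeR adjusted p = 4.59e-07, SE 0.12), whereas Notch2 fell by 0.50 (edgeR adjusted p = 0.00207, SE 0.11). Ptk7, a receptor of planar cell polarity, had 218, 241 and 232 reads in control and 1, 0 and 1 in JAG1-overexpressing libraries. With 3 reads taken for every JAG1-overexpressing library, Ptk7 was 66.6-fold lower there, a ratio without a counting interval. Tnfrsf1b, a TNF receptor, fell by 1.70 (edgeR adjusted p = 6.61e-09, SE 0.07), while Tnfrsf1a had 0.13 and was not past the threshold. Cxcl16, a membrane-bound chemokine, had overlapping groups and fell by 1.08 (edgeR adjusted p = 0.0321, SE 0.38). Its log2 fold change was −1.74 without JAG1-overexpressing replicate 1, and its call was lost without control replicate 1, control replicate 3, JAG1-overexpressing replicate 2 or JAG1-overexpressing replicate 3 (edgeR adjusted p from 0.0524 to 0.115).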

How the data were processed

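RNA of 3 control and 3 JAG1-overexpressing libraries was sequenced by the QuantSeq 3' method. For each library the authors deposited raw read counts by gene symbol, with log2 values of a normalized count beside them. Per the labels, the submitters' processing notes name Bowtie2, bedtools and edgeR and the builds GRCm38 and mm10; the annotation, the normalization and the use of strand are not given in the sources used here.

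Counts were analysed in R 4.3.3 with edgeR 4.0.16, using filterByExpr (minimum count 10), TMM and the quasi-likelihood test without covariates, with Benjamini-Hochberg adjustment over 11712 genes and a threshold of 0.05. SE was the log2 fold change over the square root of F. The script was tested on simulated data. Symbols were matched to RefSeq (GRCm38.p6), 22059 by symbol and 1071 by synonym, with strands and overlaps from GENCODE M21.

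The members, lists and alternatives were chosen with earlier results of these data known. Named were the members, Jag1, in each list the called genes with at least 2-fold change (at most 3 per direction, or else the called gene with the largest change), and the 5 tested genes on each side of Frmd8 and the 5 nearest to it in log2 CPM (prior count 2). Rer1, Tmed10, Bace1 and the other list and marker genes outside this rule were named after their values were seen. Alternatives were other scalings and filters, DESeq2 1.42.0, limma 3.58.1 on the deposited log2 values, a replicate block, a fold limit and leaving out each library. Of the neighbours of Frmd8 and the listed γ-secretase genes, 1 each is counted but not reported here.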

Additional observations from a re-analysis of the deposited data

How the results depend on the processing

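Of 554 values of the named genes under the alternatives, 535 kept their side of the threshold or moved by less than the spread of the libraries, and 0 called values changed sign. A fold limit of 1.5 left 1395 genes higher and 1711 lower over all genes, 1 of the 9 genes, 1 other γ-secretase gene, 2 genes of traffic and maturation, 1 inhibitor, 1 other rhomboid gene, 0 other FRMD genes and 10 substrates; it removes small changes by construction. DESeq2 called 3 other rhomboid genes; the cause was not tested. With 1 library left out at a time, 3 to 5 genes of traffic and maturation and 3 to 4 other rhomboid genes were called. Of the 9 genes, 3 to 4 were called. Without control replicate 1 the added gene was Adam17 (log2 fold change 0.17). Without control replicate 3 the number was also 4, and the genes called there are not reported here. The log2 fold change of Frmd8 was 7.82 on the authors' log2 values and 8.25 to 8.81 without 1 library. Dpf2 was past the threshold without control replicate 3 (edgeR adjusted p = 0.0269).

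The replicate block gave 3380 genes higher and 3331 lower and called 3 of the 9 genes; it called 4 other ADAM and β-site proteases in place of 3 and left the counts of the other lists as they were. Deviations of same-numbered libraries from their group means had r of 0.148, 0.061 and 0.119 across genes, each library best with its own number. These values are small, and deviations from a group mean cancel within the group by construction, so no pairing is read from them. Depth limits Rhbdf2, Psen2 and Aph1c.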

Other observations

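The spread within a group exceeded counting error for several of the 9 genes. Adam17, with the most reads of the 9, varied by 5.44% in control and 9.49% in JAG1-overexpressing libraries, where counting gives 1.65% and 1.71%. Rhbdf1 varied by 11.5% and 14.7%, where counting gives 5.09% and 5.24%, and Ncstn by 17.7% and 4.01%, where it gives 6.54% and 6.41%. Control replicate 1 was the lowest control library for 5 of the 9 genes and for 38.7% of all tested genes.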
